A study of Mus musculus with 6 samples.

Results

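The transcripts described here are those of 4 genes whose proteins carry a CUT domain beside a homeodomain: Cux2, the gene targeted in the study, and its relatives Cux1, Satb1 and Onecut2. They were taken as every non-control probe whose array name is one of these genes or an older name (Cutl2, Cutl1), with the Cux2 probe that the array lists under the cDNA clone name 1700051K22Rik. That gave 4 of 27670 gene names on the array and 11 of 41174 probes: 2 for Cux2, 4 for Cux1, 2 for Satb1 and 3 for Onecut2. Within a gene they are numbered from the brightest down.

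Cerebral cortex of male mice was profiled, 1 array per sample, with 3 samples titled ko (53, 48 and 54, genotype label Cux2-/-) and 3 titled WT (15, 62 and 16). The WT samples carry the genotype label Cux2+/-, which conflicts with their titles, so what they are is not settled and the title WT is kept here as a name. The labels give neither age nor strain, and say nothing of which part of Cux2 was altered. They do not state that samples came from different mice, and p-values therefore reflect sample-to-sample spread that may be partly technical. Total RNA was primed at its poly(A) tail, amplified into Cy3-carrying cRNA and read on Agilent arrays in 1 colour. Whole cortex holds many cell types, and fewer cells of a type cannot be told apart from less RNA per cell.

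CUT-class proteins are transcription factors that bind DNA through CUT domains and a homeodomain. CUX proteins carry several CUT repeats, SATB proteins also bind AT-rich chromatin, and ONECUT proteins carry a single CUT domain. In mouse cortex Cux2 and Cux1 mark neurons of the upper layers, where they are known to act on dendrites and synapses, and Satb1 is known from interneurons that arise in the medial ganglionic eminence. Onecut2 is better known from liver, pancreas, retina and motor neurons.

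Of the probes, 58.5 to 68.1% were well above background on ko arrays and 62.7 to 72.7% on WT arrays. The 5 markers of cortical excitatory neurons examined (Neurod6, Slc17a7, Tbr1, Emx1, Camk2a) were well above background on all 6 arrays, with a mean of 1.72 to 1.76 on ko arrays and 1.65 to 1.71 on WT arrays. These and all later levels are log2 processed signal after subtraction of the 75th percentile of the same array. One library stood apart for adjacent tissue: the mean of 3 olfactory bulb markers was 0.90 on ko 54, but -2.61 and -2.79 on ko 53 and ko 48 and -2.23 to -1.76 on WT arrays. Striatal markers (6 genes) averaged 0.29 to 0.47 on ko arrays, against 1.16, 1.18 and 0.40 on WT 15, WT 62 and WT 16. The arrays lay on 2 slides, slide 1 with ko 48, ko 54 and WT 15, and slide 2 with ko 53, WT 62 and WT 16.

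Transcripts of all 4 genes were measured in this cortex, and none of their probes passed the test between ko and WT. Of the 11 probes, 8 were well above background on all 6 arrays and 9 could be tested, meaning that every array of the ko group, or every array of the WT group, read them well above background. Of these 9, 0 passed an adjusted p of 0.05 in limma, 1 had an unadjusted p under 0.05, and 1 had groups that did not overlap. It was the same Cux1 probe in both counts. Over all 25502 tested probes the corresponding shares were 0.129%, 7.96% and 13.1%. By direction, 3.89% had an unadjusted p under 0.05 and were higher in ko, and 4.07% were lower, while 6.46% lay wholly higher in ko and 6.65% wholly lower. The members' counts are therefore not read as a result about the family. Differences are log2, ko minus WT, and 7 of the 9 lay above 0, with a median of 0.15 against 0.00 over all tested probes, where 50.1% lay below 0. Probes of the same gene are not independent.

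Cux2 signal was present on the arrays labelled ko, at levels that overlapped those of the arrays labelled WT. The brighter probe, designed on the Cux2 mRNA, had log2 values of -0.04, -0.05 and -0.01 on ko 53, ko 48 and ko 54, against -0.03, 0.27 and 0.03 on WT 15, WT 62 and WT 16. The groups overlapped, and WT 62 alone lay clearly above the other 5 arrays. As processed signal the ko arrays read 1082, 1014 and 1184 units and the WT arrays 1036, 1065 and 1050 units. The means were -0.03 ± 0.02 in ko and 0.09 ± 0.16 in WT (log2, SD, n = 3 each). The difference of -0.12 (SE 0.10) corresponded to a ratio of 0.920, and its 95% interval ran from 0.781 to 1.08 (adjusted p = 0.838 in limma). It was 0.01 within slide 1 and -0.19 within slide 2, and -0.03 without WT 62. Without scaling between arrays it turned to 0.05, while the median of all tested probes moved to 0.17.

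The dimmer Cux2 probe carries the name of a testis cDNA clone that the RefSeq gene table lists as a synonym of Cux2. It had log2 values of -2.40, -2.64 and -2.23 on ko 53, ko 48 and ko 54, against -2.26, -2.71 and -2.53 on WT 15, WT 62 and WT 16. Here WT 62 was the lowest array, where the brighter probe had it highest. The difference was 0.08 (SE 0.15, 95% interval -0.29 to 0.45, limma adjusted p = 0.947), with -0.17 within slide 1 and 0.22 within slide 2. The sign turned without ko 54 (-0.02) or without WT 62 (-0.03). Between the 2 probes the ko minus WT differences themselves differed by 0.20, with an exact two-sided permutation p of 0.6, where 3 arrays against 3 allow no p under 0.1. The labels do not locate the targeted segment of the gene, so neither probe checks the genotype labels.

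**Figure D1:**
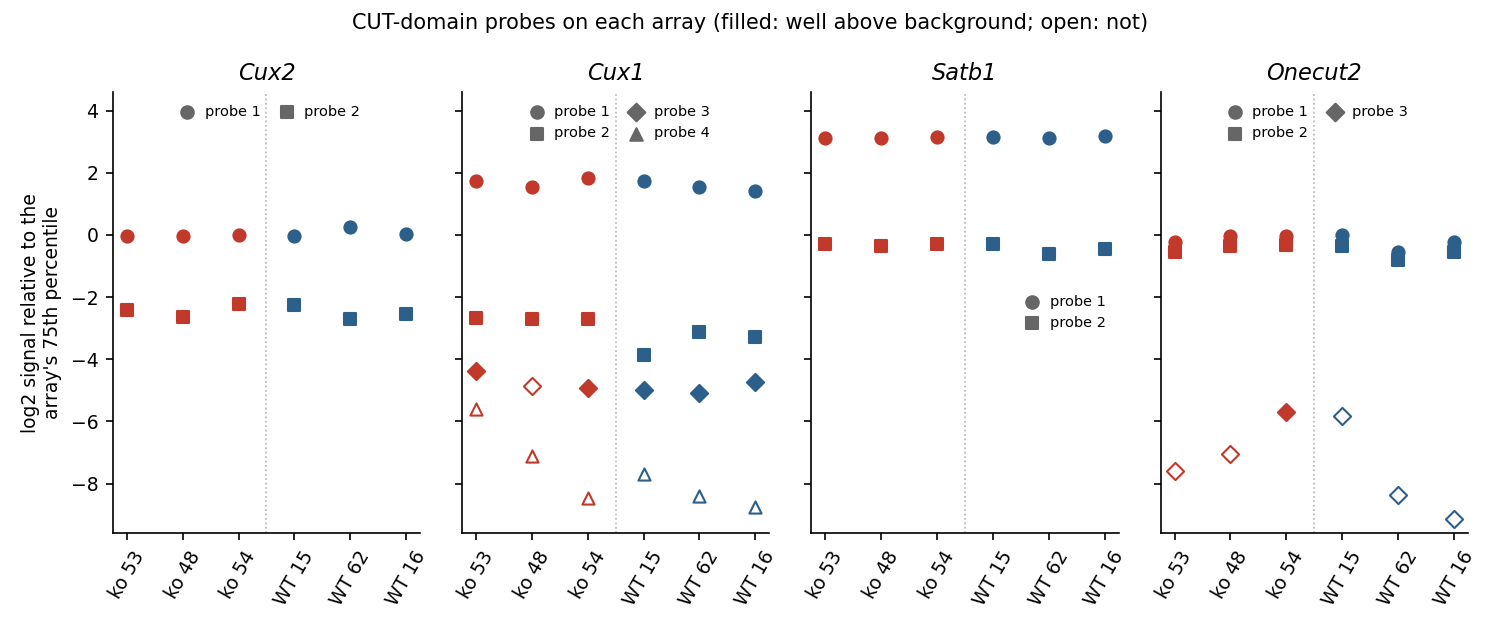
Log2 signal after scaling to the 75th percentile (vertical axis) for every probe of Cux2, Cux1, Satb1 and Onecut2 on each array, ko in red left of WT in blue. Filled symbols are well above background and open ones are not. Cux1 probe 2 has its 3 ko values (-2.70 to -2.67) above its 3 WT values (-3.86 to -3.11), while the other tested probes overlap between the groups. Levels of different probes are not comparable.

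Cux1, the closest relative of Cux2 in the genome, lies on chromosome 5 as Cux2 does in the GRCm38.p6 gene table. Besides the CUX1 transcription factor the gene gives rise by alternative splicing to CASP, a Golgi protein that has no DNA-binding domain. Probes of Cux1 can therefore report different products, and which product each probe reads was not determined. Its brightest probe, annotated to transcript variant 2, had log2 values of 1.75, 1.55 and 1.84 on ko 53, ko 48 and ko 54, against 1.75, 1.55 and 1.40 on WT 15, WT 62 and WT 16. The ranges overlapped in part, with ko 54 highest and WT 16 lowest. The difference was 0.15 (SE 0.12, 95% interval -0.15 to 0.44, limma adjusted p = 0.843), with -0.05 within slide 1 and 0.27 within slide 2. It was 0.08 without ko 54 and 0.06 without WT 16, but 0.23 without ko 48 and 0.24 without WT 15.

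The second Cux1 probe, annotated to the same transcript variant 2, was the member probe whose groups separated. It had log2 values of -2.67, -2.70 and -2.69 on ko 53, ko 48 and ko 54, against -3.86, -3.11 and -3.27 on WT 15, WT 62 and WT 16. As processed signal these were 175, 161 and 184 units on the ko arrays and 73.3, 103 and 106 units on the WT arrays, each well above background. The ko arrays lay almost on one value (SD 0.01), and the WT arrays spread over a wider range (SD 0.39), with WT 15 lowest. The difference of 0.72 (SE 0.19) corresponded to a ratio of 1.65 with a 95% interval of 1.21 to 2.26. It had an unadjusted p of 0.00731 in limma and did not pass over all probes (adjusted p = 0.396), and 1.84% of tested probes had a smaller p. It was 1.16 within slide 1, where WT 15 is the only WT array, 0.52 within slide 2, 0.84 with slide as a block and 0.50 without WT 15. After normexp background correction it was 0.63 with the 75th percentile (unadjusted p = 0.341 in limma) and 0.25 with quantile normalization (unadjusted p = 0.0187 in limma). With spots of extreme local background left out, a setting added after seeing the data, normexp gave 0.42. The unadjusted p was under 0.05 in 19 of 20 alternatives, and in all 20 the adjusted p lay at or above 0.124.

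Both of these probes are annotated to one transcript variant. The second probe minus the brightest was -4.40 in ko and -4.98 in WT on the log2 scale. This gap of 0.58 between them reached the smallest two-sided p that 3 arrays against 3 can give in the exact permutation test (p = 0.1), and 0.5 after adjustment over the 5 pairs in which both probes were tested. After normexp it was 0.54 (exact p = 0.6), and 0.25 (exact p = 0.5) with the spots of extreme local background left out. A difference between these probes is therefore not shown.

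The remaining Cux1 probes were dim. Cux1 probe 3, annotated to transcript variant 1, had log2 values of -4.39, -4.86 and -4.93 on ko 53, ko 48 and ko 54, against -5.00, -5.09 and -4.73 on WT 15, WT 62 and WT 16. It was well above background on 2 of 3 ko arrays (not on ko 48) and on all 3 WT arrays, so it entered the test through the WT group. Its difference was 0.21 (SE 0.17, limma adjusted p = 0.837), and 0.04 without ko 53, 0.14 without WT 62 and 0.01 with normexp and extreme local backgrounds left out. Cux1 probe 4, annotated as a Cux homeodomain mRNA, was well above background on no array and has no ratio.

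Satb1 is a chromatin organiser also needed for the maturation of cortical interneurons. The steadiest signal among the tested member probes came from its brighter probe, not from both of its probes. Its brighter probe had log2 values of 3.11, 3.12 and 3.14 on ko 53, ko 48 and ko 54, against 3.17, 3.11 and 3.20 on WT 15, WT 62 and WT 16. The groups overlapped, and the pooled SD of 0.03 was undercut by 1.29% of the tested probes (median 0.14). The difference was -0.04 (SE 0.07, limma adjusted p = 0.947), with the narrowest interval among the member probes, -0.21 to 0.13. That interval corresponds to a ratio of 0.866 to 1.10. It was -0.04 within slide 1 and -0.05 within slide 2, and turned to 0.14 without scaling between arrays.

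The second Satb1 probe, from a thymus cDNA, had log2 values of -0.30, -0.37 and -0.29 on ko 53, ko 48 and ko 54, against -0.29, -0.62 and -0.44 on WT 15, WT 62 and WT 16. WT 15 lay among the ko arrays, and the other WT arrays lay below them. The difference was 0.13 (SE 0.10, limma adjusted p = 0.834), with -0.04 within slide 1 and 0.23 within slide 2, and 0.05 without WT 62. The differences of the 2 Satb1 probes were 0.17 apart (exact permutation p = 0.2).

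Onecut2 was read by a pair of probes annotated to the same mRNA. The brighter one had log2 values of -0.21, -0.03 and -0.04 on ko 53, ko 48 and ko 54, against 0.01, -0.54 and -0.23 on WT 15, WT 62 and WT 16. The other had -0.54, -0.36 and -0.34 on ko 53, ko 48 and ko 54, against -0.36, -0.80 and -0.55 on WT 15, WT 62 and WT 16. On both WT 62 was the lowest array and the groups overlapped. The differences were 0.15 (SE 0.15) and 0.16 (SE 0.13), with limma adjusted p of 0.869 and 0.837, and the gap between them was 0.01. Within slide 1 they were -0.05 and 0.02, and within slide 2 0.17 and 0.14. Without WT 62 they were 0.01 and 0.05. Onecut2 probe 3, from a diencephalon cDNA, was well above background on ko 54 alone among the 6 arrays and was not tested. A further probe that the gene table assigns to Onecut2 through a clone name is outside the rule for members; all 6 arrays read it well above background and it differed by 0.02.

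**Figure D2:**
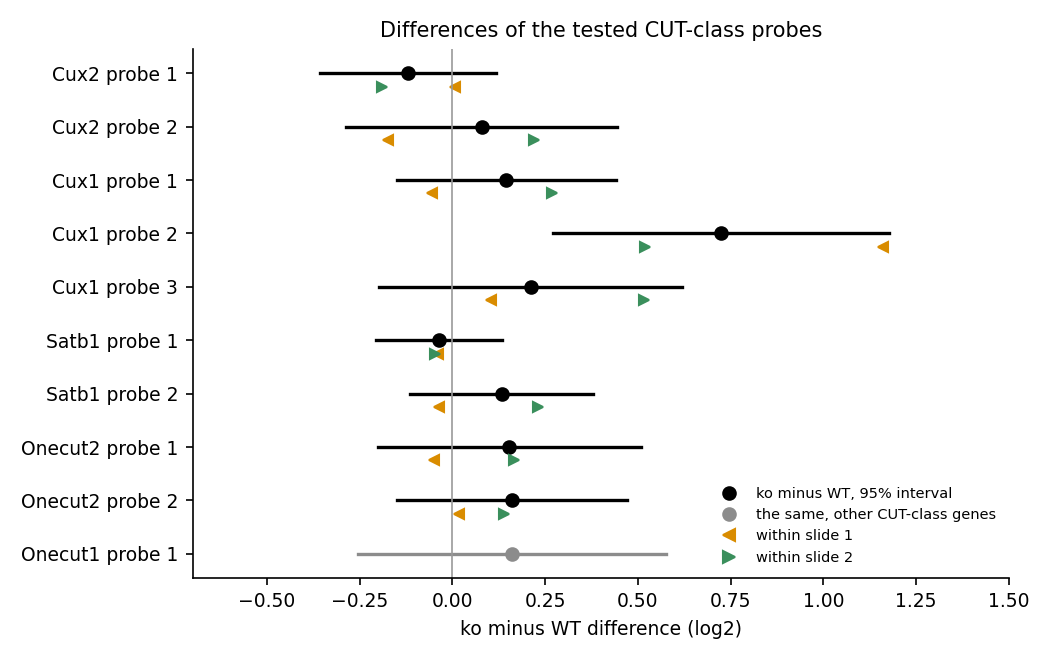
Ko minus WT difference (log2, horizontal axis) of the 9 tested member probes in black, with Onecut1 in grey. Lines are 95% intervals of the limma fit, and triangles give the difference within each slide. The interval of Cux1 probe 2 (0.27 to 1.18) lies above 0, and those of the other member probes include 0.

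On several member probes a single WT array set much of the difference. WT 62 gave the highest Cux2 probe 1 value and the lowest value of Cux2 probe 2, Cux1 probe 3, Satb1 probe 2 and both brighter Onecut2 probes. Over the 9 tested probes the mean deviation from each probe's own mean was 0.10, 0.03 and 0.12 on ko 53, ko 48 and ko 54. It was -0.03, -0.15 and -0.06 on WT 15, WT 62 and WT 16. The median difference of these probes was 0.15 with all arrays, 0.05 without WT 62 and 0.21 without WT 15. Without WT 15 the difference was -0.18 for Cux2 probe 1, 0.20 for Cux2 probe 2, 0.21 for Satb1 probe 2, and 0.29 and 0.27 for the brighter and dimmer tested Onecut2 probes. The unscaled 75th percentile was lowest on WT 62, at 885 units, against 1046 to 1192 units on ko arrays and 1027 to 1062 units on the other WT arrays. Its part in the result was not tested.

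The pattern most like each gene's brightest probe was sought by Pearson correlation across the 6 arrays among 13019 other genes well above background throughout. For Cux2 these were Faap24 (r = 0.9996), Stmn3 (0.99) and Iscu (0.99). For Cux1 they were Itch (0.99), Necab3 (0.99) and Raly (0.99), for Satb1 Sp110 (0.99), Arhgap18 (0.99) and Prkdc (0.98), and for Onecut2 Caprin2 (0.99), Fndc3a (0.99) and Aldh1a2 (0.99). The genes compared share each array's scaling and slide. With 6 arrays and so many genes, such values describe these arrays and carry no p. No member was among the closest genes of another.

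Of the other ONECUT genes, Onecut1, a hepatocyte factor, had log2 values of -2.35, -1.84 and -2.01 on ko 53, ko 48 and ko 54, against -2.14, -2.50 and -2.04 on WT 15, WT 62 and WT 16. The groups overlapped, with WT 62 again lowest, and the difference was 0.16 (SE 0.17, 95% interval -0.25 to 0.58, limma adjusted p = 0.891). It was 0.02 without WT 62 and 0.30 without ko 53. Its second probe and both Onecut3 probes did not pass the filter on dim probes. Of these 2 genes 1 could be tested and 0 passed.

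Markers of upper-layer neurons, the cells in which Cux1 and Cux2 are best known, mostly lay below WT. Of 15 listed genes 13 were tested by their brightest probe, and 0 passed an adjusted p of 0.05 over all tested probes. Of the 13, 12 lay below 0 and 1 above, with a median difference of -0.15 against -0.01 for all 17122 genes, 51.8% of which lay below 0. Unadjusted p was under 0.05 in limma for 5 of them, all lower, against 8.27% of all genes. The list was chosen with earlier results of these data known, so these counts are no independent evidence. Limch1, an actin-associated protein, had log2 values of -0.12, 0.21 and 0.07 on ko 53, ko 48 and ko 54, against 1.26, 1.93 and 1.29 on WT 15, WT 62 and WT 16. Its difference was -1.44 (SE 0.20, limma adjusted p = 0.0948, under 0.05 in 3 of 20 alternatives), while its other tested probes stood at -0.15 and -0.05. Dtx4, a Deltex relative of the Notch pathway, stood at -0.39 (SE 0.09, limma adjusted p = 0.289), with its other probes at -1.13 and -0.16. The neuropeptide gene Cartpt stood at -0.29 (SE 0.11, limma adjusted p = 0.578), with its other probe at -0.31. Without ko 53 the brighter Cartpt probe stood at -0.19 (unadjusted p = 0.0964 in limma). Without scaling between arrays 8 of the 13 lay above 0, with a median of 0.03 where all tested probes had 0.17. Among markers of other cells, 6 of 6 striatal genes, 4 of 4 microglial genes (3 with an unadjusted p under 0.05) and 4 of 4 astrocyte genes lay lower in ko. Higher in ko lay 3 of 3 genes each of vessel cells, choroid plexus and olfactory bulb and 1 of 1 red blood cell gene, besides 4 of the 5 cortical excitatory markers. For olfactory bulb this rested on ko 54 alone (mean 0.90). The means on ko 53 (-2.61) and ko 48 (-2.79) lay below those of all WT arrays (-2.23 to -1.76). Choroid plexus means overlapped, at -0.48 to 0.94 on ko arrays and -0.93 to 0.96 on WT arrays, and the vessel gene Flt1 differed by 0.01. Other markers were mixed, with 2 of 3 thalamic, 2 of 4 hippocampal and 2 of 4 oligodendrocyte genes higher in ko. Microglial markers averaged 1.21 to 1.31 on ko arrays and 1.40 to 1.69 on WT arrays. Their part in the result was not tested.

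Interneurons of the medial ganglionic eminence lineage, in which Satb1 acts, were covered by 10 genes. Gad1 and Gad2 among them also served as general interneuron markers, so the list is not particular to this lineage. All 10 lay below 0 in the main setting, with a median of -0.10. Over all genes 51.8% lay below 0, with a median of -0.01. By limma, 0 of the 10 passed an adjusted p of 0.05 over all tested probes. An unadjusted p under 0.05 was reached by 0 of the 10, against 8.27% of all genes. As the list was drawn up with earlier results of these data known, the shared direction is not read as a result about interneurons. The lowest p belonged to the tachykinin gene Tac1 at -0.57 (SE 0.27, limma adjusted p = 0.676), which striatal neurons also express, followed by the LIM-homeobox factor Lhx6 at -0.18 (SE 0.09, adjusted p = 0.711) and Sox6 at -0.13 (SE 0.08, adjusted p = 0.754). Tac1 had log2 values of 1.18, 1.56 and 1.09 on ko 53, ko 48 and ko 54, against 2.29, 1.98 and 1.28 on WT 15, WT 62 and WT 16, and so was high on the WT arrays where the striatal markers were high. Its difference was -0.35 without WT 15 and -0.85 without WT 16 (unadjusted p = 0.222 and 0.00453 in limma). The part of striatal tissue in it was not tested. With quantile normalization 8 of the 10 genes lay below 0, and without scaling 2 of 10.

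Reported partners and targets of CUT factors lay on both sides of 0. Of 14 listed genes 11 were tested, 6 lay above 0 and 5 below, and the median was 0.07. An adjusted p of 0.05 over all tested probes was passed by 0, and 1 had an unadjusted p under 0.05 in limma. These counts are near the shares over all genes (51.8% below 0, 8.27% with an unadjusted p under 0.05) and are not read as a result about the list. The 1 gene was Xlr4b, an X-linked gene of a family reported as a Cux target. It stood at 1.66 (SE 0.56, limma adjusted p = 0.525), with its other tested probe at 1.24. The brighter probe read 0.35, 1.82 and 1.37 on ko 53, ko 48 and ko 54, against -0.05, -1.61 and 0.22 on WT 15, WT 62 and WT 16. The list was chosen with earlier results of these data known, so the direction of Xlr4b is no independent evidence. Bcl11b, a transcription factor of subcerebral projection neurons, stood at -0.17 (SE 0.08, adjusted p = 0.672) and at 0.00 without scaling, while its other probe stood at -0.03. The basic helix-loop-helix factor Neurod1 stood at 0.22 (SE 0.15, adjusted p = 0.798), and at 0.38 without WT 15 (unadjusted p = 0.00437 in limma), 0.14 without WT 62 and 0.13 without WT 16. Without scaling between arrays all 11 genes lay above 0.

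**Figure D3:**
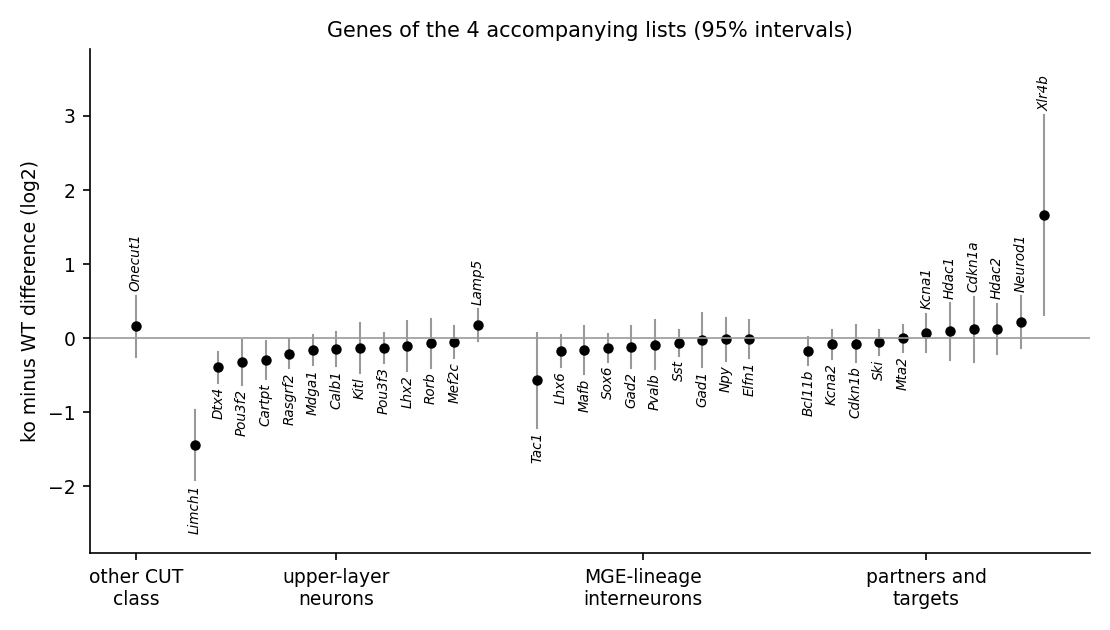
Ko minus WT difference (log2, vertical axis) of each tested gene of the 4 accompanying lists by its brightest probe, with 95% limma intervals. Limch1 (-1.44) and Xlr4b (1.66) lie farthest from 0, and 0 genes passed over all genes tested.

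**Figure D4:**
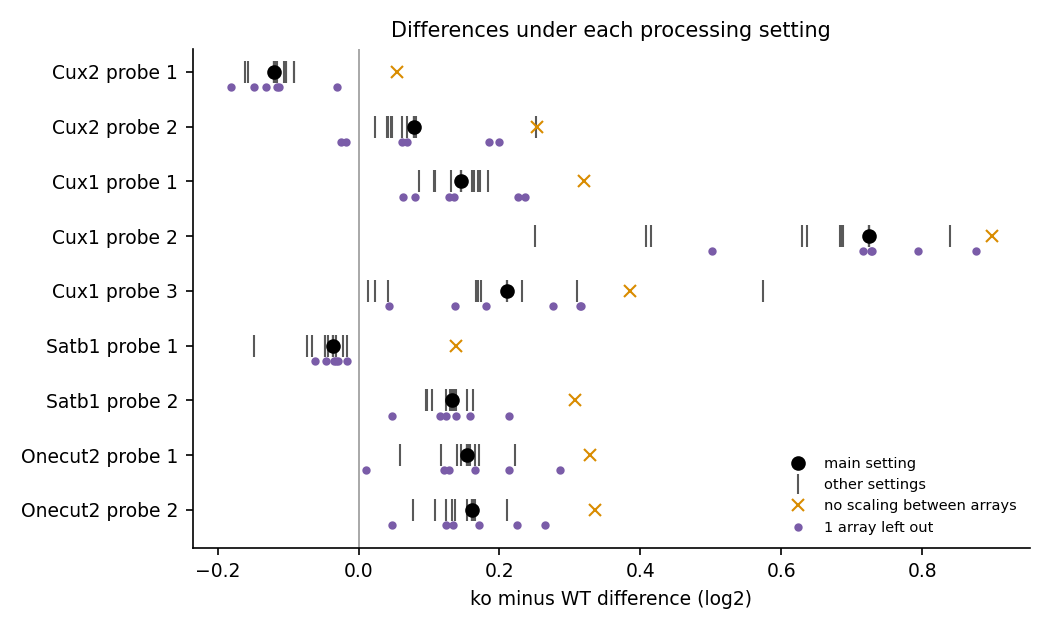
Ko minus WT difference (log2, horizontal axis) of the 9 tested member probes under every processing setting. The filled circle is the main setting, bars are other settings, the cross is the one without scaling between arrays and small dots leave out 1 array each. Cux1 probe 2 stays above 0 throughout (0.25 to 0.90), while Cux2 probe 1 runs from -0.18 to 0.05.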

How the data were processed

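The members and gene lists were chosen with earlier results of these data known. Per the file headers, spots were read with Agilent Feature Extraction 9.1.3.1. Its processed signal is an intensity, background-subtracted and detrended within each array. The mean spot and local background intensity values carry no correction, and the flags for signal well above background, outliers and saturation come from the same software, per the file headers. A value table in log2 units was deposited by the authors too. Its 6 columns share one distribution (median 6.75), so from the values it is quantile normalized. No header or label names the genome build behind the array annotation.

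Each array holds 45018 spots, of which 1639 were control spots and were left out, as were 120 outlier values over all arrays. Saturated spots numbered 0. Spots of a probe were averaged. Main values are log2 processed signal, less the 75th percentile of that array. Testing required every array of ko, or every array of WT, to read the probe well above background, with at least 2 values per group (25502 probes). This filter uses the group labels. Genes were named by accession, symbol or synonym through a RefSeq table of GRCm38.p6, and 8455 probes kept the array's name. Some genes of the lists are not reported here. Genes in lists are represented by their brightest tested probe.

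Differences were fitted in R 4.3.3 with limma 3.58.1 (lmFit, then eBayes) over all tested probes, with Benjamini-Hochberg adjustment at 0.05. Gaps between tested probes of a gene were tested by exact two-sided permutation of the 6 arrays. Every member probe is described, with up to 3 genes of lowest p per list. The 3 most correlated genes per member were taken, leaving out clone names. The fit was tested on simulated data. Figures used matplotlib 3.10.9 in Python 3.11.15. The number of arrays limits the precision.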

Additional observations from a re-analysis of the deposited data

How the results depend on the processing

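Over 20 alternatives 0 member probes passed the threshold in each. No paired analysis was possible because the groups share no replicate number. Without scaling between arrays, Cux2 probe 1 turned to 0.0548, Satb1 probe 1 to 0.138, Bcl11b to 0.0042 and Sox6 to 0.043, as the median of all tested probes moved to 0.17. Leaving out single arrays gave Cux2 probe 2 a range of -0.0254 to 0.199. The count of all called probes, 33 in the main setting, was 0 in limma with normexp and the 75th percentile (149 at an unadjusted p under 0.05), 3 with probes well above background on at least 1 array, 2 without a filter and 15 with slide as a block, and it ran from 2 to 60 as single arrays were left out (60 without ko 53, 12 without ko 54, 7 without WT 15 and 2 without WT 16). In the other 12 alternatives it lay between 24 and 49. On ko 48, ko 54 and WT 16 there were 42, 8 and 8 spots with a local background over 100, and the lowest signal after normexp was 52.5, 66.7 and 58.3 with them and 50.3 on each without them. Without them, a setting added after seeing the data, 42 probes were called with the 75th percentile and 36 with quantile normalization. In that setting the gap to the brightest probe turned to -0.156 for Cux1 probe 3 and -0.0335 for Onecut2 probe 2. Cux1 probe 3 has no value where all 6 arrays had to read a probe well above background. Dim probes (Cux1 probe 4, Onecut2 probe 3) had too little signal over background for a difference.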
